A study of Homo sapiens with 16 samples.

Results

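The full effect of the drug combination was read from 4 of the 16 RNA sequencing libraries of the series, the 2 MiaPaCa2 libraries treated with gemcitabine and genistein together and the 2 MiaPaCa2 control libraries, chosen by their labels. MiaPaCa2 is an established human pancreatic cancer cell line. The cells received 40 nM gemcitabine and 50 µM genistein together for 24 hours, and the study also holds each drug alone in MiaPaCa2 and the same 4 groups in PANC1, a second pancreatic cancer line, with 2 biological replicates per group. The labels do not say whether the controls received the DMSO in which genistein was dissolved, so vehicle and genistein cannot be told apart. All 16064 genes that passed a filter on low counts are described.

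Gemcitabine is a nucleoside analogue that is phosphorylated in the cell, is built into DNA and blocks its synthesis, and it also inhibits ribonucleotide reductase. Genistein is an isoflavone of soy that binds the estrogen receptors, activates the G protein-coupled receptor GPER1 and at micromolar doses inhibits tyrosine kinases. Cells whose replication stalls hold back mitosis through the checkpoint kinases. The programme of mitotic genes can then be lowered through the DREAM and MuvB complexes, which bind DNA at cell cycle homology regions. Whether this route acted in these cells was not tested.

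The libraries held 13445125 to 16850992 counts in the 4 samples compared, and 13101557 to 22254419 over the 8 MiaPaCa2 libraries. Over all genes, the first principal component carried 62.5% of the variance and placed both co-treated libraries at one end and both controls at the other. The slope of expression on exonic GC content, per 10 percentage points on the log2 scale, was -0.23 and -0.14 in the controls and 0.05 and 0.29 in the co-treated libraries, so GC content moved with the treatment. A fit with that trend removed from each library is therefore given beside the list counts below where it changes them. Of 5 duct and epithelial markers KRT8, KRT18 and KRT19 were abundant, with 9180 to 13953 counts in all per library, KRT7 had 1 to 5 counts and EPCAM 0. Of the markers of other cell types, all 6 acinar and all 5 islet genes summed to at most 1 count per library, the 5 fibroblast and stellate markers to 122 to 214 counts, mostly ACTA2, with DCN and LUM at 0, and the 5 leukocyte markers to 59 to 84 counts, nearly all CD14, with PTPRC at 0. The 4 endothelial markers summed to 36 and 22 counts with both drugs, nearly all CDH5, which was at 6.33 and 8.25 cpm in the controls and 2.41 and 1.31 cpm with both drugs, with PECAM1 at 0. The part of that change in other results was not tested. These are bulk libraries, in which fewer cells of a kind and less RNA per cell cannot be told apart.

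With both drugs, 3264 genes were called higher and 3245 lower than in the control, which is 40.5% of the 16064 tested in either direction, 20.3% higher and 20.2% lower. Calls had to meet 3 criteria, an adjusted p not above 0.05 (limma-voom, Benjamini-Hochberg over all genes), a log2 fold change of 0.4 or more in either direction, and an average over 1 FPKM with both drugs. The adjusted p alone passed for 51.6%. At a log2 change of at least 1, 1452 genes were called higher and 843 lower, and at a change of at least 2 the counts were 364 and 37. The last criterion counts against genes that were switched down. Without it, a count added after the values were seen, 1733 genes were higher and 1114 lower at a change of at least 1, and at a change of at least 2 there were 580, of which 82.4% were higher, against 90.8% with it. Of the falls, 197 genes passed the other criteria while going from above to at most 1 FPKM. Of 1232 lncRNA genes tested, 357 were called higher and 79 lower, against 2742 and 2723 of 12082 protein-coding genes. This split holds under all 3 criteria and was not counted without the one on FPKM. Both co-treated libraries lay above both controls in 37% of the genes and below both in 38.3%. The median change over all genes was -0.01. With the GC correction 2873 genes were called higher and 3640 lower by the same 3 criteria.

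**Figure D1:**
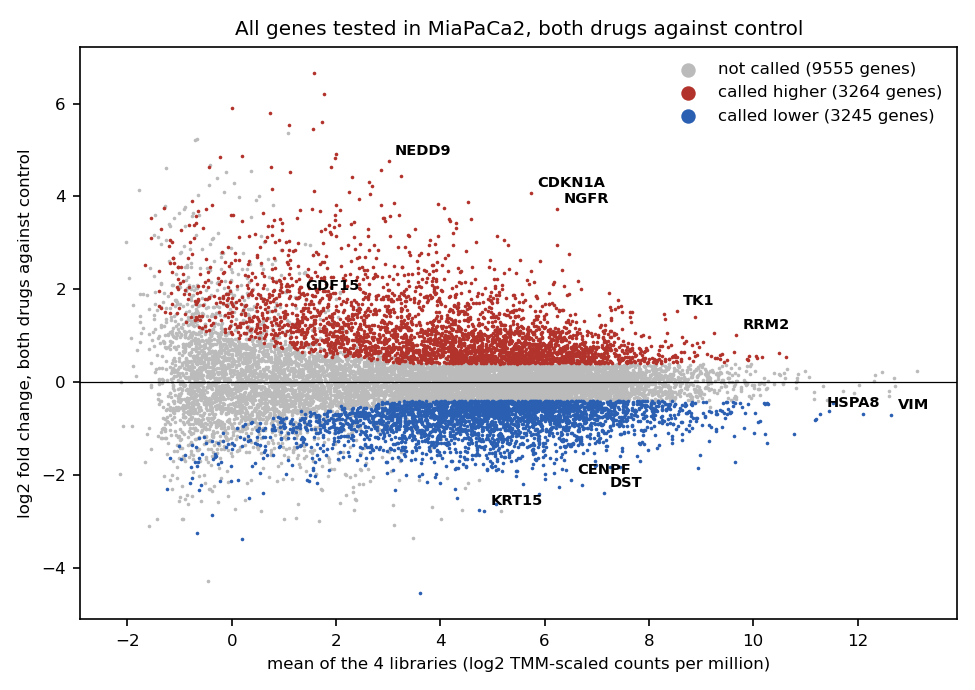
Each point is a gene tested in MiaPaCa2, placed by its mean level in the 4 libraries (horizontal axis, log2 cpm) and its log2 fold change with both drugs against the control (vertical axis), with genes called higher in red and called lower in blue. The coloured points hold 364 rises and 37 falls of at least 2, and falls to at most 1 FPKM are grey.

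The 12 largest rises among called protein-coding genes with at least 100 counts on average included a cell cycle inhibitor, an adhesion scaffold and the receptors CXCR4 and NGFR. Levels are given as TMM-scaled counts relative to library size (cpm), the first control before the second and the first co-treated library before the second. CDKN1A, which encodes the cyclin-dependent kinase inhibitor p21 (chromosome 6, 36644237 to 36655114, GRCh37, + strand), was at 6.15 and 5.65 cpm in the controls and 96.9 and 103.5 cpm with both drugs, a log2 change of 4.07 ± 0.15 (± standard error, adjusted p = 1.18e-08, limma-voom). NEDD9, a scaffold protein of focal adhesions (chromosome 6, 11183531 to 11382581), went from 0.548 and 0.535 to 16.3 and 14.8 cpm, the steepest of this set at 4.76 ± 0.31 (adjusted p = 2.98e-07, limma-voom). CXCR4, the chemokine receptor for CXCL12 (chromosome 2, 136871919 to 136876747), was at 0.426 and 0.764 cpm and then at 13.8 and 14.2 cpm. In all 3 genes the pairs of libraries did not overlap, and the gap between groups exceeded the gap between replicates. Genes chosen as the largest called changes can be expected to show this. Over all genes, both co-treated libraries lay above both controls in 37% and below both in 38.3%. These shares stand beside every statement of no overlap below.

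NGFR, the low-affinity neurotrophin receptor, was the most abundant of the strongly raised receptors, with 10.5 and 10.5 cpm in the controls and 126 and 156 cpm with both drugs (3.73 ± 0.18). NR4A1, a nuclear receptor of the early response class, rose from 0.548 and 1.22 to 17.8 and 18.3 cpm. The co-treated pair of each gene lay far above its control pair. The same held for VASN, a membrane glycoprotein that binds TGF-beta, with 1.83 and 2.14 cpm in the controls and 23.8 and 34.1 cpm with both drugs, and for RND1, a small GTPase, with 1.04 and 1.53 cpm in the controls and 13.6 and 16.7 cpm with both drugs. The other genes among the 12 largest rises were NPTX1 (3.88), SHISA2 (3.86), carboxypeptidase M (3.81), PPP1R16B (3.74) and AP3B2 (3.59), given as log2 changes. NPTX1 and AP3B2 are best known from neurons, where they encode a pentraxin and an adaptor subunit of vesicle transport.

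The 12 largest falls by the same rule, which leaves out genes at or under 1 FPKM with both drugs, included a keratin, a chromatin remodeller, a subunit and a modifier of cohesin, and a large cytoskeletal linker. KRT15, a type I keratin (chromosome 17, 39669997 to 39678781), fell from 46.4 and 53.8 to 5.65 and 9.12 cpm (-2.78 ± 0.18, adjusted p = 3.18e-07, limma-voom). ATRX, a chromatin remodeller that deposits histone H3.3 (chromosome X, 76760358 to 77041719), fell from 48.9 and 44.2 to 8.13 and 5.81 cpm (-2.76 ± 0.25). STAG1, a subunit of cohesin, fell from 60.4 and 54.6 to 12.7 and 6.999 cpm, and ESCO1, which acetylates cohesin, from 13.3 and 15.1 to 4.68 and 1.75 cpm. The replicates of STAG1 and ESCO1 differed visibly within the co-treated pair, with the second library the lower in both, yet both libraries stayed below both controls.

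DST, the cytoskeletal linker dystonin, was the most abundant gene among the 12 largest falls, at 252 and 219.8 cpm in the controls and 49.6 and 41.0 cpm with both drugs (-2.39 ± 0.21). TM4SF18, a membrane protein with 4 transmembrane segments, fell from 104.7 and 96.2 to 20.7 and 17.1 cpm and had the smallest error of the set (-2.42 ± 0.12). Both genes showed no overlap between the groups. NFAT5, the transcription factor of the response to osmotic stress, had a log2 change of -2.26, and NEMF, a factor of ribosome quality control, one of -2.31. The 2 regulators of small GTPases, DOCK11 and ARHGAP5, had changes of -2.21 and -2.19, and the remaining members were KIAA0020 (-2.49) and the ubiquitin ligase G2E3 (-2.17). All 24 genes of the largest rises and falls were also called after the GC correction. The strand setting of the counting is not given in the sources used here. Over 20% of the exonic bases of STAG1, NGFR, NEMF and ARHGAP5, and of ANGPTL6, GINS4, DDIT3, DUSP6, MXD3 and XRCC3 named below, lie opposite another annotated gene, and of AHR and IFI6 beside one on the same strand, so part of their reads may belong to the neighbour.

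**Figure D2:**
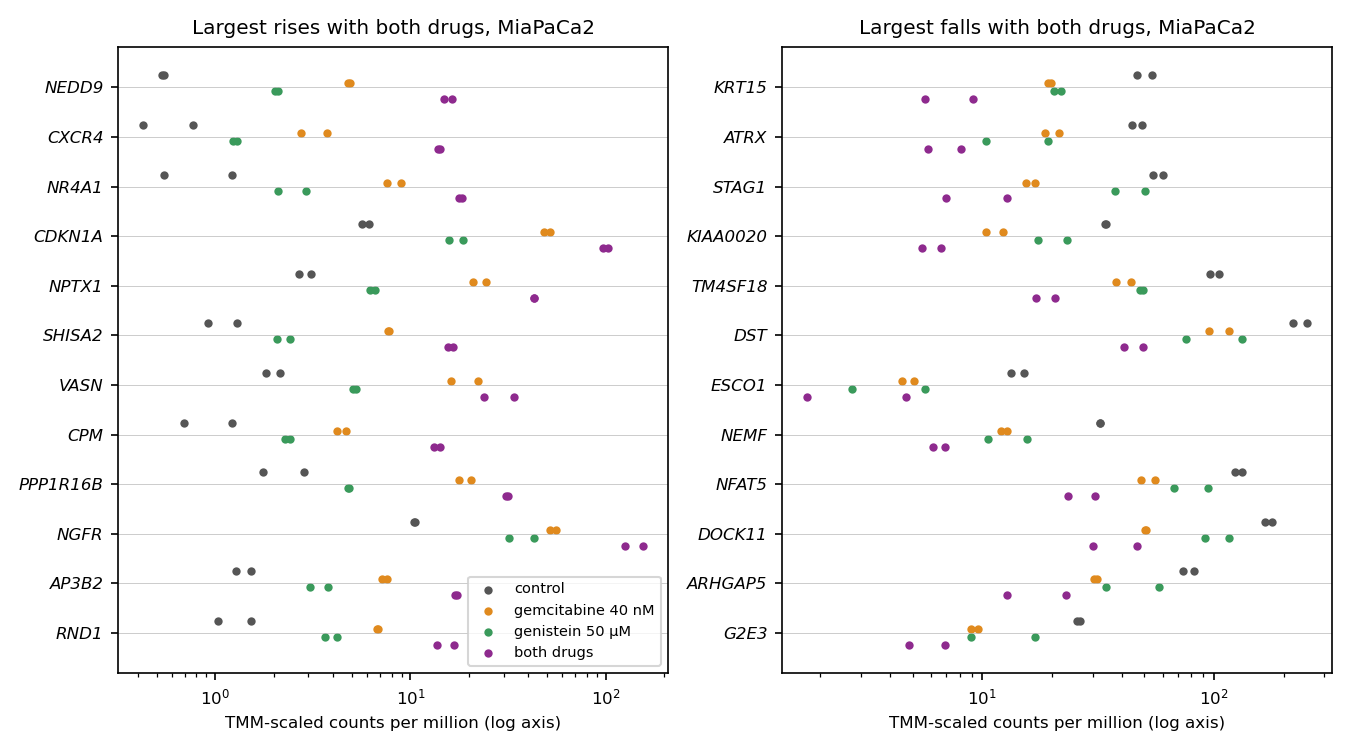
Points are single MiaPaCa2 libraries, placed by TMM-scaled cpm on a log axis, for the 12 largest rises (left) and the 12 largest falls (right), with control in grey, gemcitabine in orange, genistein in green and both drugs in purple. The purple pair lies beyond all other pairs for each gene except ESCO1, as for CDKN1A at 6.15 and 5.65 cpm in the control and 96.9 and 103.5 cpm with both drugs.

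E2F1, the transcription factor that drives entry into S phase, rose from 85.5 and 89.7 to 212 and 233 cpm (1.34 ± 0.10, adjusted p = 6.05e-07, limma-voom). CCNE1, the cyclin that acts with CDK2 at that step, rose from 50.7 and 51.7 to 100.5 and 98.2 cpm, while CCNB1, the cyclin of mitotic entry, fell from 771 and 726 to 400.2 and 393 cpm (-0.92 ± 0.08). The co-treated and control libraries did not overlap in any of these 3 genes. CCND1, the cyclin of mitogen signalling, fell (-0.92), CCND3 rose (1.01), and the kinase WEE1, which holds CDK1 inactive, fell (-0.76). Of 22 cyclins, kinases and inhibitors tested, 9 (40.9%) were called higher, 4 (18.2%) lower and 9 not called, beside 20.3% and 20.2% over all genes, with a median change of 0.14. After the GC correction 8 and 3 were called and the median was -0.03. The count of each list below stands beside the same shares of all genes. Beside CDKN1A the list held CDKN1C, the inhibitor p57, at 0.548 and 0.917 cpm in the controls and 6.96 and 8.25 cpm with both drugs (3.39 ± 0.33). CDK6 had 10.2 and 8.56 cpm in the controls and 2.14 and 1.94 cpm with both drugs but was not called, since its co-treated FPKM was at most 1.

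Among 13 E2F and pocket protein genes, 3 were called higher and 4 lower, with a median of -0.15. The risers were E2F1, E2F2 (0.90) and the repressor E2F7 (1.14), and the fallers were E2F3 (-0.69), E2F4 (-0.74), E2F5 (-1.34) and RBL1 (-1.09), which encodes the pocket protein p107. E2F3 is an activator of the same class as E2F1 and E2F2, so members of that class were found on both sides of 0.

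Of 43 tested genes of replication licensing and of the replication fork, 17 (39.5%) were called higher, 9 (20.9%) lower and 17 not called, beside 20.3% and 20.2% over all genes, and the median was 0.22. CDT1, which loads the replicative helicase, had 47.3 and 53.4 cpm in the controls and 98.6 and 131 cpm with both drugs (1.19 ± 0.17). GINS4, a subunit of the active helicase, rose from 92.2 and 86.6 to 202 and 190.1 cpm, CDC6, the loading partner of CDT1, from 145 and 139 to 246 and 232 cpm, and LIG1, which joins Okazaki fragments, from 61.1 and 64.1 to 108.5 and 135 cpm. The groups did not overlap in these genes. CDC7, the kinase that fires origins, went the other way, from 22.4 and 21.8 to 12.1 and 7.50 cpm (-1.22 ± 0.19), together with its partner DBF4 (-0.69) and the origin recognition subunits ORC2 (-0.64) and ORC3 (-0.72). With GC content corrected the list held 11 higher and 2 lower calls, so not all of the fallers named here stayed called. Letters of the E2F site (TTCGCGC, its variant TTGGCGC or the further variant TTCCCGC), searched on both strands in the 250 bases before the start, stood in 39.5% of the promoters matched for this list and in 14.9% of those of all genes tested.

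Several genes of deoxynucleotide supply rose, among them that of a subunit of ribonucleotide reductase, the enzyme that gemcitabine inhibits. RRM2, the regulated subunit of ribonucleotide reductase, rose from 549.6 and 534 to 1118 and 1061 cpm (1.01 ± 0.07, adjusted p = 4.56e-07, limma-voom). TK1, the thymidine kinase of S phase, rose from 185 and 195 to 477 and 625 cpm (1.53 ± 0.13). The co-treated libraries lay above the controls in both. CMPK1, the kinase that adds the second phosphate to gemcitabine, fell from 139 and 128 to 73.3 and 56.9 cpm (-1.05 ± 0.12). DCK, which adds the first phosphate, was at 20.2 and 19.2 cpm and 28.0 and 24.2 cpm and missed the fold criterion, and SLC29A1, the main uptake transporter, was at 164 and 172 cpm in the controls and 194 and 200.3 cpm with both drugs and was not called. The cytidine deaminase gene CDA, whose product inactivates gemcitabine, had 3 and 5 counts in the controls and 1 and 2 with both drugs and was not tested. Of 17 tested genes of this list, 5 were called higher, 3 lower and 9 not called, with a median of 0.16. The GC correction gave 7 higher and 4 lower calls. Without the first co-treated or the second control library 3 were called higher.

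Most of the mitotic genes tested fell. Of 40 tested genes of the mitotic kinesins, kinetochore and spindle checkpoint, 22 were called lower, 1 higher and 17 not called, beside 20.2% called lower over all genes, and the median was -0.55. CENPF, a kinetochore protein of the G2 phase, fell from 153 and 141 to 36.6 and 31.5 cpm (-2.12 ± 0.19, adjusted p = 2.39e-06, limma-voom). PLK1, the kinase that drives mitotic entry and spindle assembly, fell from 185 and 183 to 82.2 and 99.4 cpm, and CDC20, the activator of the anaphase-promoting complex, from 429 and 434 to 236 and 267 cpm. The controls lay above the co-treated libraries in all 3 genes, and the 2 controls differed from each other by far less than the groups did. AURKA, the spindle pole kinase, fell with a change of -0.62, TTK, a checkpoint kinase, with one of -1.66, and the kinesin KIF18A with one of -1.996. The single riser was SPC24, a subunit of the NDC80 complex, at 50.6 and 48.9 cpm in the controls and 79.5 and 92.7 cpm with both drugs. A further 3 genes, CENPE (-3.36), KIF20B (-2.94) and ASPM (-2.77), had larger differences but a co-treated FPKM of at most 1, and so do not count as called. The GC correction left 21 lower calls and 1 higher call.

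The start regions of 4 genes of mitosis are shown because the family is known for CHR elements and CCAAT boxes in its promoters, and these 4 were chosen for holding letters of both. The sequences are the 120 bases before the start in RefSeq (GRCh38.p14, gene strand, 5′ to 3′), with CHR letters (TTTGAA or TTTAAA) and CCAAT letters on either strand in capitals, and no motif overlapped another. They lie at chr1:214603075-214603194 (+) for CENPF, chr16:23678769-23678888 (+) for PLK1, chr5:69167030-69167149 (+) for CCNB1 and chr1:43358861-43358980 (+) for CDC20.
CENPF: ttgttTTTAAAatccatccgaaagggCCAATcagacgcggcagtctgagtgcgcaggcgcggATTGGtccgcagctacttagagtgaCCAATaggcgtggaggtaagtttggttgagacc
PLK1: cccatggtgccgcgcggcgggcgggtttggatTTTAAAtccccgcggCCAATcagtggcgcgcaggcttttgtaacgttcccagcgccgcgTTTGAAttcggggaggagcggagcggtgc
CCNB1: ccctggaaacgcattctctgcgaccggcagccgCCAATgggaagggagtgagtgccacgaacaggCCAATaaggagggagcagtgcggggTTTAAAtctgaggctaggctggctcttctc
CDC20: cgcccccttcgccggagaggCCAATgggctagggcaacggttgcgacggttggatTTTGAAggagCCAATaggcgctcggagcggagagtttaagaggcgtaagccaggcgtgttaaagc
The order of the letters differed. The CHR letters nearest the start lay downstream of the CCAAT letters in CCNB1 and PLK1, between 2 CCAAT runs in CDC20, and upstream of all 3 CCAAT runs in CENPF. Of other windows of mitotic genes searched, that of ASPM held both, those of KIF14, KIF20B and TOP2A held CCAAT letters but no CHR, that of CENPE held CHR but no CCAAT letters, and that of NUF2 held neither.

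Promoters were matched by symbol, with a single start per gene, for 34 of the 40 mitotic genes. CHR letters stood in the 250 bases before the start in 22 of the 34 (64.7%) and CCAAT letters in 26 (76.5%). Among 10326 promoters matched for the genes tested the shares were 13.8% and 34.3%, and 22.3% and 32.9% of all 27305 promoters in RefSeq held them. Within the list, 14 of 19 matched genes called lower (73.7%) and 8 of 14 not called (57.1%) held CHR letters. A match describes letters in a window and does not show binding.

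Poly-A libraries hold little of the replication-dependent histone messages, and 12 histone genes were tested, none called higher and 2 lower, and 3 lower after the GC correction. Reads of this family can be shared among near-identical copies, so their values are uncertain. HIST1H2BK fell from 46.3 and 42.5 to 18.7 and 21.6 cpm and HIST1H2AC from 31.1 and 29.5 to 21.5 and 20.6 cpm.

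DNA repair genes were called in each direction at about the rate of all genes. Of 27 genes of the Fanconi and recombination pathways, 6 (22.2%) were called higher and 6 (22.2%) lower. Over all genes the shares were 20.3% and 20.2%. The median was 0.02, and after the GC correction 5 and 4 were called, with a median of -0.04. The fallers included the damage kinases ATM, at 36.2 and 33.2 cpm in the controls and 12.9 and 7.75 cpm with both drugs (-1.81 ± 0.27), ATR (-0.88) and CHEK1 (-0.59), and BRCA2 (-1.41), a tumour suppressor of homologous recombination. The risers were XRCC3 (0.79), FANCL (0.66), the exonuclease EXO1 (0.58), FANCD2 (0.50), FANCG (0.49) and FANCE (0.48). The value of XRCC3, a recombination protein, is uncertain, since most of its exonic bases lie opposite the gene KLC1. Topoisomerases and the enzymes that remove their DNA adducts were called lower in 4 of 8 cases and higher in none, with a median of -0.50. TOP2B, the form of resting and dividing cells, fell from 85.1 and 83.3 to 39.1 and 26.2 cpm, TOP1 from 199 and 203 to 130.1 and 107.3 cpm and TOP2A, the form of dividing cells, from 801 and 746 to 565 and 411 cpm. In each of the 3 the second co-treated library was the lower.

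Of 34 apoptosis genes 10 (29.4%) were called higher and 5 (14.7%) lower, beside 20.3% and 20.2% over all genes, with a median of 0.19. Several BH3-only genes, which encode the sensors that start mitochondrial apoptosis, were among the risers. BIK rose from 1.10 and 1.37 to 8.61 and 11.1 cpm (2.98 ± 0.30), BCL2L11, which encodes BIM, from 22.4 and 22.3 to 55.2 and 49.6 cpm (1.22 ± 0.11), and BMF from 7.92 and 7.41 to 17.6 and 16.4 cpm (1.14 ± 0.15). The groups did not overlap in any of the 3. The initiator caspases CASP9 (1.23) and CASP10 (1.38) also rose. The tumour necrosis factor receptor TNFRSF1A fell from 345 and 356 to 166 and 187 cpm, and the ligand TNFSF10, known as TRAIL, fell as well (-1.17). Corrected for GC content, 13 genes of the list were called higher and 8 lower, with a median of -0.0032.

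Chaperones of the endoplasmic reticulum were among the risers. In the unfolded protein response list, 8 of 25 were called higher and 1 lower, with a median of 0.12, and 9 and 1 after the GC correction. MANF, a secreted chaperone of that compartment, rose from 46.7 and 44.4 to 94.5 and 99.98 cpm (1.09 ± 0.10), and HERPUD1, which acts in the degradation of misfolded proteins, from 47.3 and 43.8 to 89.3 and 90.8 cpm. The most abundant riser was the calcium-binding chaperone CALR (0.53), whereas HSPA5, the master chaperone BiP, was at 752 and 753 cpm in the controls and 955 and 911 cpm with both drugs (0.31) and stayed under the fold criterion.

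In the integrated stress response list 9 of 31 were called higher and 4 lower, with a median of 0.07. ATF3, a stress-induced transcription factor, rose from 2.68 and 1.60 to 17.98 and 19.997 cpm (3.14 ± 0.29, adjusted p = 2.95e-06, limma-voom). CHAC1, which degrades glutathione, rose from 5.97 and 5.12 to 15.98 and 24.6 cpm, and DDIT3, which encodes CHOP, from 9.50 and 9.70 to 19.8 and 16.5 cpm. The co-treated values exceeded both controls in these genes. The stress cytokine GDF15 (1.84) and PPP1R15A, which reverses the phosphorylation of eIF2, (1.07) were also raised. ATF4, the central factor of this response, was at 132 and 128 cpm in the controls and 100.97 and 98.6 cpm with both drugs and was not called (-0.38), and the transfer RNA synthetases NARS (-0.96), WARS (-0.64) and SARS (-0.48) were lower. The GC correction gave 7 higher and 10 lower calls and a median of -0.04.

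Of 18 heat shock genes tested, 10 (55.6%) were called lower and none higher, beside 20.2% called lower over all genes, with a median of -0.56. HSP90AB1, the constitutive HSP90, fell from 3083 and 2901 to 1702 and 1683 cpm (-0.82 ± 0.07, adjusted p = 1.35e-06, limma-voom). HSPA8, the constitutive HSP70, fell from 3187 and 2946 to 1947 and 1886 cpm, and CHORDC1, an HSP90 co-chaperone, from 28.5 and 24.7 to 8.95 and 6.44 cpm (-1.82 ± 0.20). The groups were apart in all 3 genes. HSPH1 (-0.86), HSPA4 (-1.06) and the mitochondrial pair HSPD1 (-0.61) and HSPE1 (-1.02) fell too, while HSF1, the transcription factor of the response, was at 86.1 and 92.9 cpm in the controls and 72.5 and 94.7 cpm with both drugs and was not called. The GC correction gave 11 lower calls and 1 higher call.

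**Figure D3:**
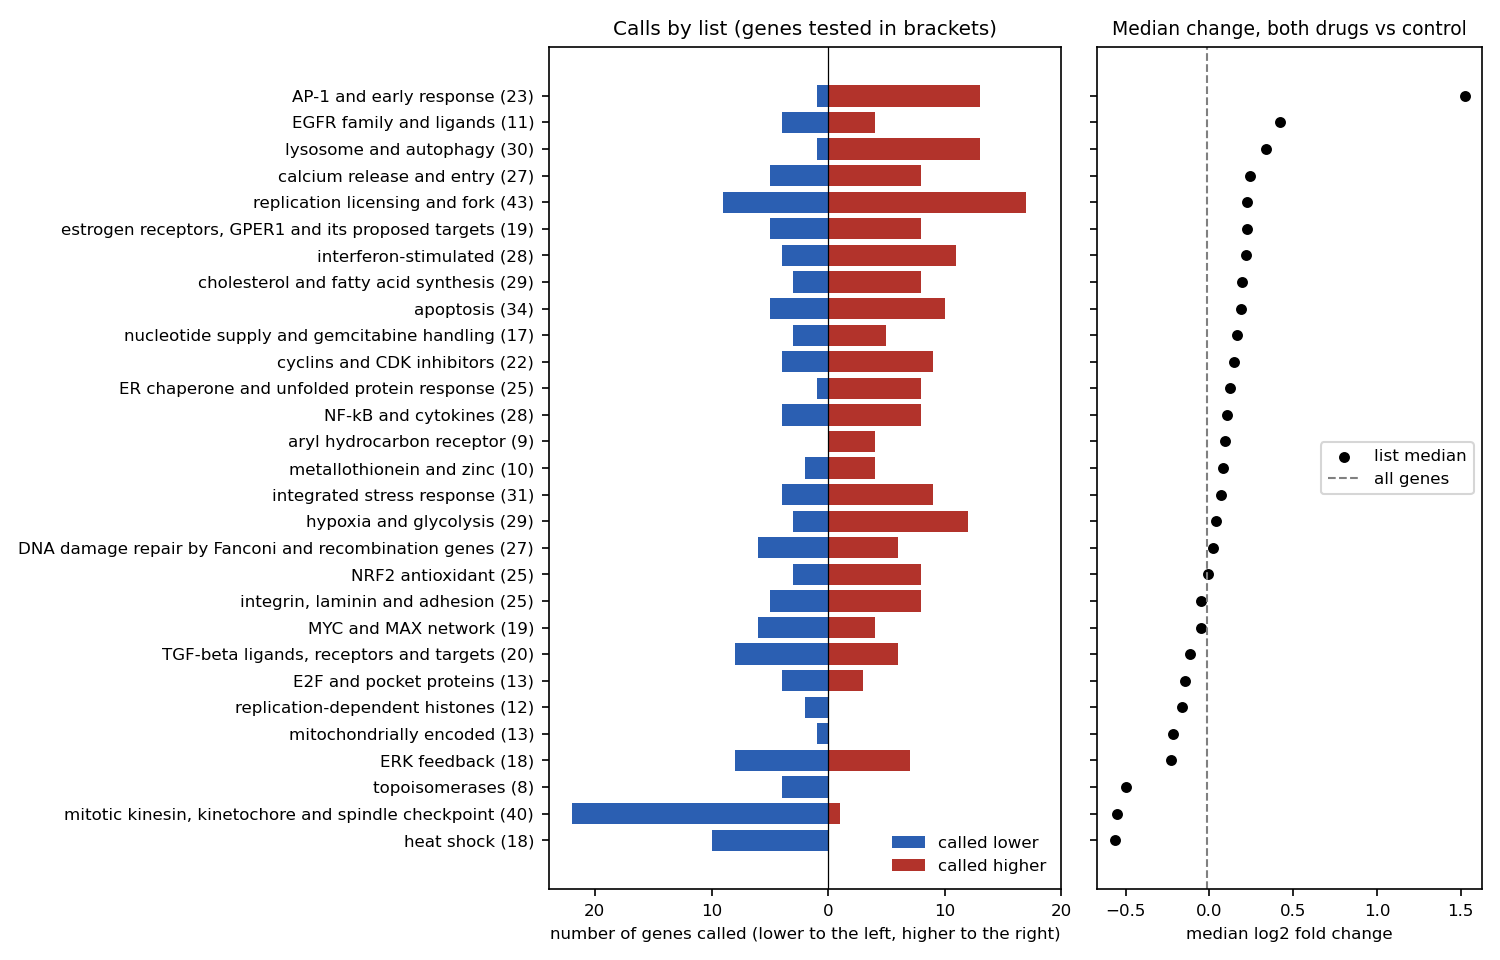
Rows are lists of genes with the number tested in brackets, ordered by median change. Bars on the left panel count genes called lower (blue) and higher (red) with both drugs in MiaPaCa2, and dots on the right panel give the median log2 fold change beside the median of all genes (dashed line, -0.01), from 1.52 for the AP-1 list to -0.56 for the heat shock list.

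The early response genes had the highest median of the lists shown. Of 23 tested, 13 were called higher, 1 lower and 9 not called, beside 20.3% called higher over all genes, and the median change was 1.52. FOS, a subunit of the transcription factor AP-1, rose from 2.74 and 3.59 to 21.4 and 21.9 cpm (2.79 ± 0.21, adjusted p = 7.93e-07, limma-voom). FOSB rose from 0.487 and 0.993 to 10.95 and 12.6 cpm (4.05 ± 0.36), JUNB from 15.2 and 23.0 to 51.2 and 82.5 cpm, and the zinc finger factor EGR1 from 31.4 and 29.6 to 85.4 and 92.7 cpm. JUNB varied most within its pairs, yet its lower co-treated library was above both controls. IER5 (2.40), MAFF (1.52) and EGR3 (2.86) rose as well. JUN itself was at 55.2 and 55.5 cpm in the controls and 59.5 and 70.1 cpm with both drugs and was not called, and KLF6, a zinc finger factor, fell from 187 and 180.5 to 70.8 and 57.6 cpm (-1.53 ± 0.10). NR4A3 had 1 count in each control and a few cpm with both drugs (4.61 and 3.75), and was not called because of its FPKM. The early response list held 10 higher and 3 lower calls after the GC correction.

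The start regions of 3 early response genes are shown because the core letters TGACGT of a cyclic AMP response element (CRE), bound by CREB family factors, stood close to the start in each. They are 120 bases before the RefSeq start (GRCh38.p14, gene strand) with TGACGT, or ACGTCA on the other strand, in capitals, at chr14:75278708-75278827 (+) for FOS, chr5:138465359-138465478 (+) for EGR1 and chr19:45467876-45467995 (+) for FOSB.
FOS: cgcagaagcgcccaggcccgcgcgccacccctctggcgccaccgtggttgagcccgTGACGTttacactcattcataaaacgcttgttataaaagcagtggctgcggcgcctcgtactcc
EGR1: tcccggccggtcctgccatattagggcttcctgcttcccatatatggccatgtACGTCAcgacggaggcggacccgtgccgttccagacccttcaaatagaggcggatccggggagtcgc
FOSB: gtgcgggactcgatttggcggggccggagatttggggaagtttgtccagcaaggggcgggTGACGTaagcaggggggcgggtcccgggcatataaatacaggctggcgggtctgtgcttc
The CRE letters were found in 8 of the 18 promoters matched for this list (44.4%), against 10.2% of the promoters of all genes tested, in the 250 bases before the start. Within the list they stood in 5 of 11 matched genes called higher (45.5%) and 3 of 6 not called (50%), so the letters did not separate the genes that rose. The windows of ATF3, NR4A1 and JUNB, which rose, held none. Only a single annotated start per gene was searched, so any other start of these genes is not covered. The AP-1 letters TGAGTCA or TGACTCA were found in none of the 18, against 2.55%, which says only that these letters are absent from this window.

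Feedback genes of the ERK pathway moved in both directions. Of 18 tested, 7 were called higher and 8 lower, with a median of -0.23. Lower calls numbered 5 with library size alone and in 1 model over all 16 libraries, where the median was 0.0032, and the GC correction gave 5 higher and 7 lower. Of 7 DUSP phosphatases, which inactivate MAP kinases, 5 rose and DUSP7 fell (-0.41), with DUSP5 going from 9.01 and 8.78 to 38.8 and 40.1 cpm (2.14 ± 0.13), DUSP4 from 1.22 and 1.30 to 7.37 and 7.25 cpm and DUSP6 from 19.7 and 19.5 to 42.6 and 47.4 cpm. In contrast, the 3 Sprouty genes, which encode inhibitors of receptor signalling, fell, with SPRY2 going from 184 and 174 to 84.1 and 77.9 cpm (-1.15 ± 0.09), SPRY4 from 341 and 334 to 187 and 183 cpm and SPRY1 from 50.1 and 50.1 to 23.7 and 21.4 cpm. The groups did not overlap in these 6 genes. The ephrin receptor EPHA4 also fell (-1.32).

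Of 11 EGF receptor family genes and ligands, 4 were called higher and 4 lower, with a median of 0.42, and 4 and 3 after the GC correction. HBEGF, a ligand of the EGF receptor, rose from 6.64 and 4.58 to 44.3 and 47.4 cpm (3.03 ± 0.17, adjusted p = 1.04e-07, limma-voom). TGFA, another ligand, had 2 counts in the first control and 1 in the second and was at 7.23 and 5.81 cpm with both drugs, so its fitted change depends on the prior count and no fold is given. AREG rose from a low level (0.853 and 0.687 to 2.41 and 2.31 cpm), while EREG fell from 246 and 237 to 132 and 94.7 cpm. The receptor EGFR was lower as well, at 148 and 146 cpm in the controls and 90.4 and 78.6 cpm with both drugs (-0.80 ± 0.09), as was the feedback inhibitor ERRFI1, which fell from 792 and 806 to 357 and 308 cpm.

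Among 28 NF-kB genes and cytokines, 8 (28.6%) were called higher and 4 (14.3%) lower, beside 20.3% and 20.2% over all genes, with a median of 0.10. The members of the alternative branch rose, with RELB going from 11.1 and 11.99 to 28.7 and 35.7 cpm (1.47 ± 0.19) and NFKB2 from 53.05 and 51.8 to 109.3 and 128 cpm (1.17 ± 0.10). RELA, the main subunit of the classical branch, was at 58.8 and 60.6 cpm in the controls and 50.6 and 59.8 cpm with both drugs and was not called. NFKBIE (1.51) and TNFAIP3 (1.22), which restrain the pathway, rose, whereas NFKBIA (-0.56) and the chemokine CXCL1, at 118 and 116.5 cpm in the controls and 53.2 and 55.1 cpm with both drugs, were lower. Corrected for GC content, 9 were called higher and 7 lower.

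Interferon-stimulated genes were higher in 11 cases and lower in 4 of 28, with a median of 0.22, and in 11 and 3 cases after the GC correction. OAS3, a sensor of double-stranded RNA, rose from 41.0 and 42.4 to 123 and 121 cpm (1.55 ± 0.10), IFI6 from 13.5 and 15.1 to 42.2 and 54.7 cpm, and STAT2, which carries the interferon signal, from 42.9 and 45.9 to 94.2 and 92.4 cpm. The groups were apart in each. IFIT2 fell from 52.7 and 44.2 to 23.3 and 17.7 cpm and IFIT5 fell too (-1.16). Without the second co-treated library 2 of the list were called lower.

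TGF-beta genes were called higher in 6 and lower in 8 of 20 cases, with a median of -0.12. The ligand TGFB1 rose from 14.98 and 16.3 to 47.0 and 57.2 cpm (1.74 ± 0.14) and the matricellular protein CTGF from 7.80 and 7.87 to 29.3 and 28.0 cpm (1.87 ± 0.14). LTBP2, a matrix protein related to the binders of latent TGF-beta, fell from 57.0 and 58.6 to 15.1 and 15.5 cpm (-1.91 ± 0.12), and the signal carriers SMAD2 (-0.61) and SMAD3 (-0.45) were lower.

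The receptors that genistein binds were at low levels. ESR1, which encodes estrogen receptor alpha, had 0 counts in the 4 libraries. ESR2, which encodes estrogen receptor beta, stayed under 1 cpm, at 0.244 and 0.306 cpm in the controls and 0.895 and 0.812 cpm with both drugs. GPER1 (chromosome 7, 1121844 to 1133451, GRCh37) had 32 and 18 counts in the controls and 45 and 87 with both drugs, which is 1.95 and 1.37 cpm and then 3.10 and 5.44 cpm (1.30 ± 0.33, adjusted p = 0.00498, limma-voom). The lower co-treated library stood above the higher control, but the co-treated pair was spread widely. With gemcitabine alone GPER1 had a change of 1.13 (adjusted p = 0.0162, limma-voom), and with genistein alone one of -0.16 (adjusted p = 0.822, limma-voom), against the same controls.

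A list held the estrogen receptors, GPER1, targets proposed for it and related genes such as MUC1 and CHRNA7. Of its 19 tested genes, 8 were called higher and 5 lower, with a median of 0.22. The targets, among them VDR and SP1, were proposed by the study on these libraries, so their counts are not independent evidence. The study also used a GPER1 agonist and antagonist in both lines, and qPCR and western blots for MUC1 with genistein, which lie outside these counts. The study showed its targets as raised with both drugs against gemcitabine alone, whereas the values here are against the control. VDR, the vitamin D receptor, rose from 2.98 and 3.28 to 28.4 and 27.7 cpm (3.15 ± 0.17, adjusted p = 1.02e-07, limma-voom). MUC1, a membrane mucin, fell from 10.2 and 11.7 to 3.51 and 4.37 cpm (-1.46 ± 0.18), and SP1, a ubiquitous transcription factor, from 148 and 140.1 to 69.2 and 58.0 cpm (-1.19 ± 0.10). After the GC correction the list held 7 calls in each direction and its median turned to -0.10. CHRNA7, a nicotinic receptor with a near-identical partial copy elsewhere in the genome, was called higher at 2.89 and 2.19 cpm with both drugs, and its count is uncertain for that reason.

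Calcium release and entry genes were higher in 8 and lower in 5 of 27 cases, with a median of 0.24, and in 8 and 6 after the GC correction. ITPR1, the release channel opened by inositol trisphosphate, rose from 11.998 and 11.1 to 37.1 and 33.3 cpm (1.60 ± 0.13). STIM1, the sensor of the calcium stores, rose from 48.1 and 49.4 to 76.9 and 76.7 cpm, and the voltage-gated channel CACNA1G from 1.77 and 1.30 to 10.3 and 9.998 cpm (2.70 ± 0.28). The groups did not overlap in these 3 genes. CALM2, a gene for the calcium sensor calmodulin, fell from 697 and 652 to 441 and 371 cpm.

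Genes of low oxygen and glycolysis were called higher in 12 and lower in 3 of 29 cases, with a median of 0.04. NDRG1, a classical hypoxia target, rose from 17.5 and 18.5 to 80.0 and 86.4 cpm (2.21 ± 0.11, adjusted p = 6.34e-08, limma-voom). ALDOC, an aldolase, rose from 5.48 and 5.65 to 36.6 and 42.4 cpm, and EPAS1, which encodes HIF-2 alpha, from 3.11 and 3.82 to 16.1 and 18.6 cpm. HIF1A, which encodes HIF-1 alpha, went the other way, from 142 and 134 to 82.6 and 62.6 cpm (-0.94 ± 0.12). The abundant glycolytic genes ENO1 (-0.46) and LDHA (-0.48) were lower, and GAPDH was not called (-0.19). After the GC correction 10 were called higher and 6 lower, with a median of -0.03.

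Lysosome and autophagy genes were called higher in 13 and lower in 1 of 30 cases, with a median of 0.34. NEU1, a sialidase, rose from 33.2 and 36.2 to 81.6 and 88.5 cpm (1.30 ± 0.10, adjusted p = 1.17e-06, limma-voom), MAP1LC3B, the autophagosome protein LC3B, from 105.1 and 94.9 to 179.8 and 167 cpm, and the kinase ULK1 from 25.3 and 32.5 to 52.2 and 66.6 cpm. The ranges of the groups did not touch. ATG5 was the single gene called lower (-0.49), and 11 rises and 1 fall were called after the GC correction.

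In the list of cholesterol and fatty acid synthesis 8 of 29 were called higher and 3 lower, with a median of 0.19. IDI1 (1.18) and MVD (1.09), enzymes on the path to cholesterol, rose, and the regulator INSIG1 went from 57.8 and 52.2 to 108.5 and 105.2 cpm. ACACA, which starts fatty acid synthesis, was lower (-0.81). Antioxidant genes driven by NRF2 were higher in 8 and lower in 3 of 25 cases, with a median of -0.01. The haem oxygenase HMOX1 rose from 28.3 and 28.0 to 48.3 and 57.7 cpm, while the thioredoxin reductase TXNRD1 fell from 1250.1 and 1176 to 649 and 569 cpm (-0.998 ± 0.08), and NQO1 was not called (-0.07). After the GC correction, cholesterol and fatty acid genes numbered 7 higher and 6 lower, and NRF2 genes 4 and 3. Without the second co-treated library 5 NRF2 genes were called lower.

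Of 9 genes of the aryl hydrocarbon receptor system 4 were called higher and none lower, with a median of 0.10, and 3 were called higher after the GC correction, with a median of -0.08. The receptor AHR itself rose from 4.63 and 3.82 to 15.98 and 15.3 cpm (1.87 ± 0.17), and its target CYP1A1 from 15.2 and 16.2 to 30.5 and 29.7 cpm. CYP1B1, another target, was not called (-0.06). Metallothionein and zinc genes were called higher in 4 and lower in 2 of 10 cases, with a median of 0.08, and after the GC correction 1 and 3 were, with a median of -0.27. MT1A had the largest rise (1.71) and MT2A was the most abundant riser (0.48). Without the first control 1 was called higher, and without the second co-treated library 2. The 13 mitochondrially encoded genes held 1 call, MT-ND6, the message of the light strand, lower at 53.4 and 46.4 cpm in the controls and 23.6 and 21.1 cpm with both drugs. That count was 5 without the first control, 2 without either co-treated library, and 3 after the GC correction.

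Adhesion genes were called higher in 8 and lower in 5 of 25 cases, with a median of -0.05. FN1, fibronectin, rose from 0.731 and 0.535 to 10.4 and 9.998 cpm (3.94 ± 0.32, adjusted p = 1.27e-06, limma-voom). LAMA3, a laminin chain of epithelia, rose from 5.12 and 5.96 to 19.2 and 17.9 cpm, and the transcription factor SNAI1 from 5.36 and 6.11 to 13.3 and 16.8 cpm. KRT19, a keratin of ductal cells, fell from 176 and 205 to 51.0 and 66.6 cpm (-1.70 ± 0.13), the hyaluronan receptor CD44 from 1621 and 1642 to 782 and 722 cpm, and vimentin, VIM, from 8001 and 7899 to 4666 and 5082 cpm (-0.71 ± 0.06). ZEB1, a transcription factor of mesenchymal cells, was lower as well (-1.48). The epithelial keratin KRT19 and the mesenchymal markers VIM and ZEB1 were thus all lower, and the mesenchymal FN1 and SNAI1 higher. Of the adhesion genes 8 were called higher and 10 lower after the GC correction.

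MYC was lower. It fell from 241 and 259 to 116.1 and 119 cpm (-1.09 ± 0.08, adjusted p = 7.57e-07, limma-voom), and its paralogue MYCL1 rose from 3.35 and 2.44 to 16.5 and 16.3 cpm (2.48 ± 0.22). The antagonists MXD1 (1.15), MXD3 (1.44) and MXD4 (0.72) rose. Nucleolar genes known as MYC targets were lower, with NCL going from 1465 and 1419 to 858 and 768 cpm, NPM1 from 559 and 565 to 282 and 272 cpm and NOP58 from 88.0 and 83.5 to 34.4 and 21.1 cpm. Over the 19 genes tested 4 were called higher and 6 lower, with a median of -0.05, and 3 and 9 after the GC correction.

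The direction of change in MiaPaCa2 went with the base composition of the genes. Among protein-coding genes in the lowest quintile of exonic GC content, the median change was -0.48, with 47.9% called lower and 6.66% higher. In the highest quintile the median was 0.32, with 7.32% called lower and 37.6% higher. Longer genes were also more often lower, with medians from 0.19 in the shortest quintile of gene spans to -0.24 in the longest. After the GC correction the medians by GC quintile lay between -0.13 and -0.01 and those by span between -0.17 and -0.04. The correction called 6513 genes, of which 4585 were called in the same direction without it and 2 in the opposite direction. Long genes of low GC content, such as ATRX, CENPF and ATM, remained called lower with it (-2.01, -1.79 and -1.36). Without the correction, medians from the lowest to the highest GC quintile went from -0.32 to 0.14 in the first co-treated library. In the second they went from -0.60 to 0.44, both relative to the control mean. The same combination in PANC1 gave medians of 0.0078 in the lowest GC quintile and -0.11 in the highest.

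**Figure D4:**
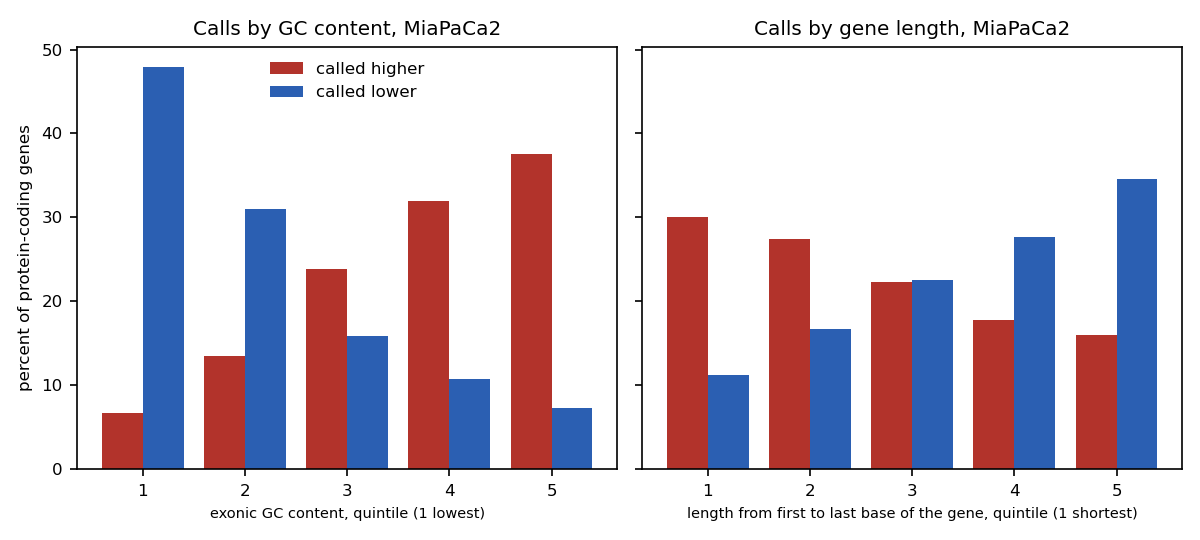
Bars give the percent of protein-coding genes called higher (red) and lower (blue) with both drugs in each quintile of exonic GC content (left) and of gene length from first to last base (right). Lower calls fall from 47.9% in the GC-poorest quintile to 7.32% in the GC-richest, while higher calls go from 6.66% to 37.6%.

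The combination was closer to gemcitabine than to genistein in the number of genes that differed. Against gemcitabine alone, 651 genes were higher and 294 lower with both drugs (5.88% of those tested), and against genistein alone 2668 were higher and 2400 lower (31.5%). Against genistein the balance turned to 2171 higher and 3249 lower with the GC correction and was 3331 and 1615 with library size alone, and against gemcitabine the GC correction gave 912 and 663. These comparisons share the co-treated libraries with the main one. Called genes that also differed in the same direction from each single drug at an adjusted p of at most 0.05 (limma-voom) numbered 599 higher (3.73%) and 264 lower (1.64%). The count against gemcitabine rested on single libraries, being 142 and 137 without either gemcitabine library, 1872 without the first and 684 without the second co-treated library.

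The genes that stood furthest above both single drugs were CXCR4, ROPN1L, ANGPTL6, PDE2A, SERPINI1 and SPNS2. CXCR4 was at 2.74 and 3.76 cpm with gemcitabine, 1.288 and 1.23 cpm with genistein and 13.8 and 14.2 cpm with both. SERPINI1, a protease inhibitor of neurons, was at 0.792 and 0.458 cpm in the controls, 2.97 and 2.48 with gemcitabine, 2.74 and 3.39 with genistein and 12.6 and 11.9 cpm with both. For SPNS2, a transporter of sphingosine 1-phosphate, the values were 0.183 and 0.382 cpm in the controls, 2.21 and 1.51 cpm with gemcitabine, 0.725 and 1.18 cpm with genistein and 6.96 and 7.50 cpm with both. The co-treated pair of each gene was above all other MiaPaCa2 libraries, which the rule that picked these genes favours. PDE2A, a phosphodiesterase of cyclic nucleotides, exceeded gemcitabine by 2.003 and genistein by 2.19 on the log2 scale.

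The genes furthest below both single drugs were DBNDD2, KRT15, DST, TM4SF18, ATRX and REV3L. KRT15 was at 19.7 and 19.3 cpm with gemcitabine, 21.8 and 20.5 cpm with genistein and 5.65 and 9.12 cpm with both. REV3L, the catalytic subunit of DNA polymerase zeta, was at 22.2 and 21.5 cpm in the controls, 11.3 and 9.27 cpm with gemcitabine, 8.54 and 11.3 cpm with genistein and 5.10 and 4.75 cpm with both. For both genes, picked by the same rule, the co-treated pair was the lowest. DBNDD2 was at 0.731 and 0.993 cpm in the controls and 0.207 and 0.437 cpm with both drugs and shares part of its exons with the read-through gene SYS1-DBNDD2. Its counts were 12 and 13 in the controls and 3 and 7 with both drugs, while its deposited FPKM, through which it passed the criterion on FPKM, was 38.5 on average in the controls and 36.2 with both drugs, so its fall is uncertain.

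A test of departure from the sum of the single-drug changes on the log2 scale passed for 4 genes at an adjusted p of 0.05 (0.0249% of those tested, limma-voom), with 1346 genes at an unadjusted p of 0.05. Given here are EGR1 and, chosen after their values were seen, CYR61 and SNHG3. EGR1 was at 31.4 and 29.6 cpm in the controls, 82.5 and 75.1 cpm with gemcitabine, 83.2 and 80.3 cpm with genistein and 85.4 and 92.7 cpm with both, so that all 3 treatments stood at similar levels. CYR61, a matricellular protein, was at 96.3 and 92.1 cpm in the controls, 144 and 149 cpm with gemcitabine, 149 and 147 cpm with genistein and 112.5 and 117.2 cpm with both. SNHG3, a host gene of small nucleolar RNAs, fell from 114.7 and 111.8 cpm in the controls to 40.8 and 40.8 cpm with gemcitabine, 76.3 and 79.7 cpm with genistein and 57.9 and 53.7 cpm with both. With both drugs SNHG3 lay between the single drugs and CYR61 below each of them.

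The median departure was -0.01 over the genes called higher and -0.02 over those called lower. The changes with each drug alone, against the same controls, are given side by side. CDKN1A had log2 changes of 3.07 with gemcitabine, 1.51 with genistein and 4.07 with both. FOS had 2.24, 1.37 and 2.79, CENPF -1.12, -0.997 and -2.12, and HSP90AB1 -0.88, -0.14 and -0.82 in that order. INSIG1 had 0.02, 0.79 and 0.96, and CCNB1 -0.82, -0.19 and -0.92. INSIG1 was thus nearer to its value with genistein and CCNB1 nearer to its value with gemcitabine.

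The same combination was set beside its effect in PANC1, whose libraries are separate. In PANC1 2897 of 16909 genes were called (17.1%), 1730 higher (10.2%) and 1167 lower (6.9%). The GC correction turned the balance there to 2353 higher and 2768 lower, and 574 genes were called with only the 4 libraries compared, so the overlap given next holds for the uncorrected counts. Called in both lines were 1501 genes, which is 23.1% of the MiaPaCa2 calls and 51.8% of the PANC1 calls, with 872 higher in both, 481 lower in both, 81 higher in MiaPaCa2 and lower in PANC1, and 67 the reverse. Over the genes called higher in MiaPaCa2 the median change in PANC1 was 0.33, and over those called lower it was -0.20. The response differed between the lines, by the test of the difference itself over all 16 libraries, for 3239 of 17863 genes (18.1%, adjusted p at most 0.05, limma-voom). That count was 1025 with only the 8 libraries compared. It was 1477 and 1889 without the first and the second MiaPaCa2 control, 1548 without the second MiaPaCa2 co-treated library, 1803 without the first PANC1 co-treated library and 5513 without the second PANC1 control.

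Among the genes called in both lines, ranked by the smaller of their changes, those raised most were IL10RA, ATF3, CXCR4, LRP4-AS1 and RND1. IL10RA, the receptor for interleukin 10, changed by 4.91 in MiaPaCa2, from 0.487 and 0.0764 cpm in the controls, of which the second held 1 count, to 6.47 and 9.06 cpm, and by 4.99 in PANC1. A fold from so few counts depends on the prior count. NEDD9, at 4.76 and 5.26, was not called in PANC1, where its co-treated FPKM was at most 1. ATF3 changed by 3.14 and 4.40, and CXCR4 by 4.56 and 3.09. LRP4-AS1, an antisense transcript of LRP4, is uncertain, since the strand setting is not known. Those lowered most in both were GTF2IP1, MBNL2, TNS3, ZNF467 and KCNN4. TNS3, the adhesion protein tensin 3, changed by -1.70 and -2.09, and MBNL2, a regulator of splicing, by -1.76 and -1.70. GTF2IP1 is a pseudogene with near-identical copies and its value is uncertain.

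CDKN1A set the lines apart, with 4.07 in MiaPaCa2 and 0.45 in PANC1 (adjusted p of the difference = 3.47e-06, limma-voom). Of the genes called in opposite directions, TBC1D8 (1.26 in MiaPaCa2 and -1.40 in PANC1) and ETS2 (1.25 and -1.28) were higher in MiaPaCa2 and lower in PANC1. SGK1, a kinase induced by serum and glucocorticoid, fell from 574 and 548 to 251 and 225 cpm in MiaPaCa2 (-1.24) and was higher in PANC1 (1.94), and SNHG1, another host gene of small nucleolar RNAs, had changes of -0.46 and 1.87. With the GC correction the MiaPaCa2 change of SNHG1 was -0.27, under the fold criterion, so its call there was lost. Of the mitotic genes shown above, PLK1 changed by -1.58, CCNB1 by -1.18 and CENPF by -1.16 in PANC1, each called lower there as well.

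**Figure D5:**
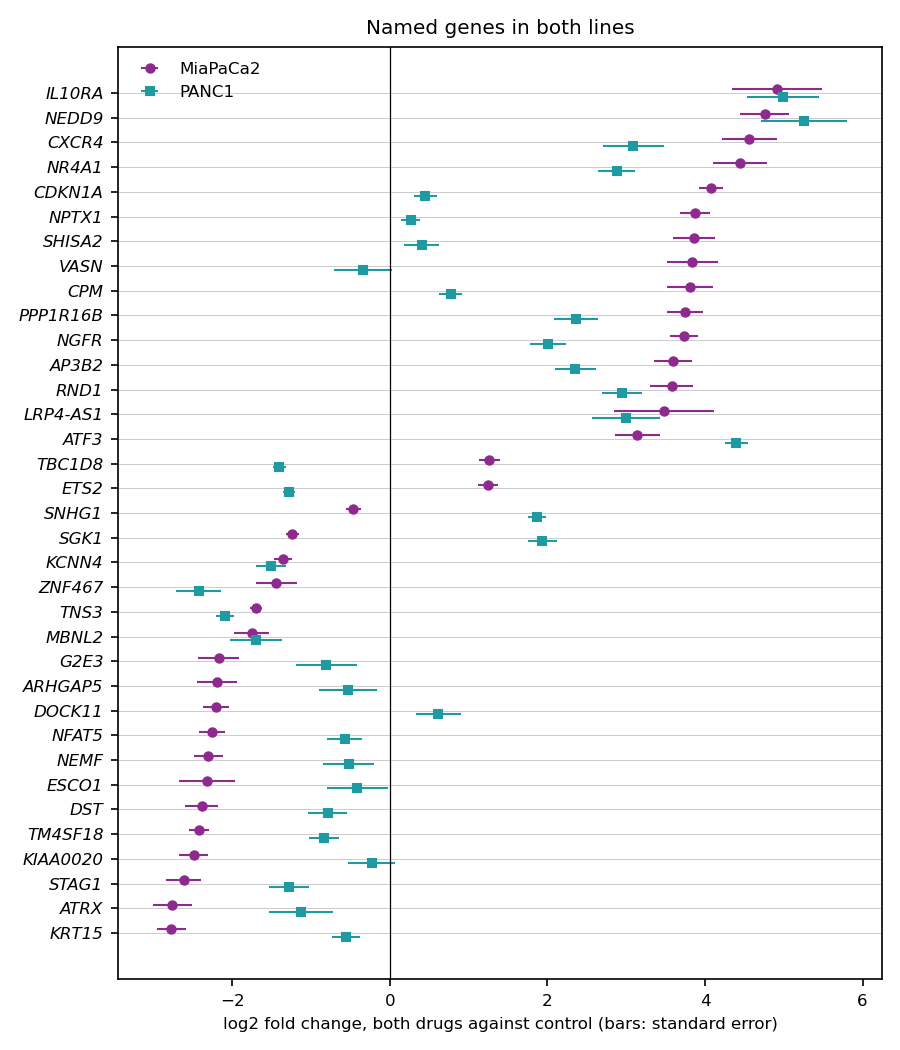
Points are log2 fold changes of both drugs against control with their standard errors (bars), in MiaPaCa2 (purple circles) and PANC1 (turquoise squares), for the genes with the largest changes in MiaPaCa2 and those named for both lines. CDKN1A stands at 4.07 in MiaPaCa2 and 0.45 in PANC1, while NEDD9 stands at 4.76 and 5.26.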

How the data were processed

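Poly-A RNA of the 16 libraries was sequenced as single reads, and the submitters' processing notes name TopHat2 2.0.4, Picard 1.29, SAMtools, HTSeq 0.6.1 and Cufflinks 2.1.1 with build GRCh37. Reads that mapped to several places had been removed, which can lower the counts of genes with near-identical copies. The authors deposited raw read counts per gene from HTSeq and gene FPKM values, scaled to transcript length and depth, from Cufflinks. The deposited isoform FPKM values were not used. The strand setting and the annotation release are not given in the sources used here.

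Counts of the 8 MiaPaCa2 libraries were filtered with filterByExpr of edgeR 4.0.16, scaled by TMM and fitted with limma-voom (limma 3.58.1, R 4.3.3), with 1 mean per group, no block and Benjamini-Hochberg adjustment over the 16064 genes tested. FPKM served only for the criterion of a mean above 1 in the co-treated libraries, and 12 tested genes had no FPKM row. PANC1 was fitted in the same way, and the difference between lines in 1 model over all 16 libraries. For the GC correction a loess trend (span 0.3) on exonic GC content was removed from each library, with a value for 15757 genes (98.1%). Marker and pathway lists are described by counts and medians without a test. The self-test on simulated data was run before the fits.

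Named were the 12 largest rises and 12 largest falls among called protein-coding genes with at least 100 counts on average, the 6 genes furthest above and the 6 furthest below both single drugs, 15 genes chosen across both lines (5 raised and 5 lowered in both, 5 in opposite directions), and members of the lists. Some of these genes, and 1 of the lists, are not reported here. Members and lists were chosen with earlier results of these data known. Other settings tried were the quasi-likelihood test of edgeR, DESeq2 1.42.0, other scalings and filters, limma-trend on log2(FPKM + 1), a replicate block, the GC correction, and leaving out each library. The methods give 2 biological replicates per group, and the standard errors rest on a spread shared by all groups of the line. The co-treated MiaPaCa2 pair differed most between its replicates. Its chi-square per degree of freedom on the counts was 10.3, against 5.95 with genistein, 5.25 with gemcitabine and 3.46 in the control. The shared spread may thus understate the errors of the co-treated group. Gene positions are those of GENCODE on GRCh37, and promoter sequences are RefSeq's on GRCh38.p14.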

Additional observations from a re-analysis of the deposited data

Results flagged for a closer look

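The response to both drugs differed between MiaPaCa2 and PANC1 for 3239 genes (18.1% of those tested) by the test of the difference itself (limma-voom over all 16 libraries). The genes below that passed it were named for their change in MiaPaCa2 or for opposite calls in the lines, so their number and direction measure nothing about the lines. Values below are the PANC1 log2 change minus the MiaPaCa2 log2 change.

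Among the genes raised in MiaPaCa2 the difference was -1.64 for NR4A1, -3.71 for CDKN1A, -3.69 for NPTX1, -3.53 for SHISA2, -4.25 for VASN and -3.13 for carboxypeptidase M (CPM). It was -1.46 for PPP1R16B, -1.79 for NGFR and -1.32 for AP3B2. For the genes furthest above both single drugs it was -1.94 for ROPN1L, -2.26 for ANGPTL6, -2.57 for PDE2A, -3.03 for SERPINI1 and -4.54 for SPNS2. In these 14 genes the MiaPaCa2 response was the larger. The MiaPaCa2 controls held only 4 and 2 counts of ANGPTL6 and 3 and 5 of SPNS2, so the differences of these genes depend on the prior count.

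Among the genes lowered in MiaPaCa2 the difference was 2.15 for KRT15, 1.26 for STAG1, 2.16 for KIAA0020, 1.51 for TM4SF18, 1.52 for DST and 1.68 for NEMF. It was 1.60 for NFAT5, 2.73 for DOCK11, 1.57 for ARHGAP5 and 1.36 for REV3L, so that the fall was the smaller in PANC1, and DOCK11 stood above 0 there without being called.

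ATF3 was raised more in PANC1, by 1.18. Of the genes called in opposite directions, the difference was -2.75 for TBC1D8, -2.62 for ETS2, 3.10 for SGK1 and 2.25 for SNHG1.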

How the results depend on the processing

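The count of 6509 genes against the control stayed within 1.5 times under the alternatives run (5231 to 6922 without 1 library, 5893 with DESeq2, 5349 with limma-trend), except that 2295 remained at an absolute log2 change of at least 1. The share called higher was 50.1%, and 62.1% with limma-trend, against 57.7% with library size alone and 44.1% with the GC correction. Scaling moved the median of all genes by -0.08 to 0.07. Against gemcitabine (945) the count was 492 in 1 model over all 16 libraries, 1575 with the GC correction, 1.0e+02 with limma-trend (83 higher and 21 lower), 148 at a change of at least 1, and 137 to 1872 without 1 library. Against genistein (5068, 52.6% higher) it was 1327 at a change of at least 1, and the share higher was 40.1% with the GC correction, 67.3% with library size alone and 69.8% with limma-trend. In PANC1 (2897, 59.7% higher) it was 574 with only the libraries compared, 5121 with the GC correction, 1028 at a change of at least 1, and 1869 (without the first co-treated library) to 2845 without 1 library, and the share higher was 79.9% with library size alone, 81.8% with limma-trend and 45.9% with the GC correction. The difference between lines (3239) was 1025 with only the libraries compared, 5369 with the GC correction, and 1477 to 5513 without 1 library. Of single genes, SLC29A1 turned to -0.12 with the GC correction (adjusted p = 0.157, limma-voom), also with the block, and DCK to -0.66 with limma-trend (adjusted p = 0.537). Among the single genes followed, 23 kept their direction but lost an adjusted p of at most 0.05 in at least 1 setting. Another 7 kept theirs and gained it in at least 1 setting. Of the list counts not given above, lower calls in the unfolded protein response went from 1 to 3 without the first co-treated library, 2 without the second control and 0 without the second co-treated library. Those of the lysosome list ranged from 0 to 2 and those of the AP-1 list from 1 to 2 without 1 library. In 1 model over all 16 libraries 5 replication and 5 TGF-beta genes were called lower. With limma-trend the lower calls were 1 in DNA repair, cholesterol, hypoxia and metallothionein genes, 2 in the integrated stress, NF-kB and interferon lists, 3 in apoptosis and calcium genes, 4 in TGF-beta, 5 in ERK feedback and 0 in lysosome genes. The library size alone left 0 lower calls in the unfolded protein response and lysosome lists. List medians near 0 turned sign, that of TGF-beta to 0.03 without the first co-treated library and 0.06 without the second control, that of adhesion to 0.18 without the second co-treated library, those of nucleotide supply and NF-kB to -0.03 and -0.06 with no filter on low counts, and that of NRF2 to 0.07 and of MYC to 0.02 with library size alone. The cause was not tested.

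The labels number the replicates but do not say whether the numbers pair cultures. Deviations of same-numbered MiaPaCa2 libraries correlated between -0.30 and 0.16, without the GC correction. With 2 libraries a group, this cannot show whether same-numbered libraries shared a culture or a batch. A replicate block gave 6390 calls against the control and 617 against gemcitabine. With the block and the GC correction together the counts were 6503 and 1444, and 4885 in PANC1 and 5109 for the difference between lines. The block moved no other count of calls by over 1.5 times.

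With 2 libraries a group, a change is judged against a spread shared across genes, and genes under about 10 counts in the controls, such as IL10RA, carry wide errors. GC content, gene length and the treatment moved together in these libraries.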
